A study of Caenorhabditis elegans with 29 samples.

Results

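The transcripts of 7 innexin genes and of lim-7 were followed in dissected gonads of Caenorhabditis elegans in which P granules, germ cell condensates of RNA and protein, had been depleted by RNAi or altered by mutation. The 8 genes were taken by name from the deposited table of 45627 genes, and all 8 were found. They were inx-14, inx-21 and inx-22, named here for germ cells, inx-8, inx-9 and lim-7, named for the gonadal sheath, and unc-7 and unc-9, named for neurons.

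Innexins are the proteins from which invertebrate gap junctions are built, channels that join the cytoplasm of neighbouring cells. In the gonad, channels of INX-8 and INX-9 in the sheath cells dock with channels of INX-14 and INX-21 or INX-22 in the germ cells. These junctions are known to be needed for germ cells to proliferate and for oocytes to be held back from meiotic maturation until sperm signals. LIM-7 is a LIM homeodomain transcription factor whose promoter is widely used to mark sheath cells, and UNC-7 and UNC-9 form electrical synapses between neurons, UNC-9 also acting in muscle.

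The study comprised 29 RNA libraries in 10 groups, 3 per group except for 2 in the glh-1 mutant. In the RNAi experiment every animal, controls included, was of strain DP132, which carries edIs6, a transgene of the unc-119 promoter and gene fused to gfp with the rol-6 marker, on chromosome IV. Mothers were fed at 24 °C either an empty vector (control) or bacteria making double-stranded RNA against glh-4, glh-1, pgl-3 and pgl-1 (P-granule RNAi), and gonads of their F1 offspring were collected at the L4 larval stage, on adult Day 1 and on adult Day 2. Each control library held 75 to 100 gonads and each RNAi library 125 to 150. At Day 2 the RNAi gonads were divided by eye into those with visible GFP (GFP-positive) and those without (GFP-negative), so a high unc-119 level in the GFP-positive group follows from how it was chosen. The labels mark the L4 and Day 1 RNAi gonads as GFP-negative too. At L4 both treatments were cut at the gonad bend, and sterility, seen in more than 80% of adult siblings, could not yet be scored. Adult controls came from fertile worms and were cut at the bend, whereas adult RNAi gonads came from sterile worms only, the large ones cut at the bend and the stunted ones not cut. In adults the effect of the RNAi, of sterility and of the different dissection cannot be told apart. The mutant experiment used Day 1 adult gonads of wild type (SS1174), glh-1(gk100) I (SS0804) and pgl-1(ct131) him-3(e1147) IV (SS0002) at 24 °C, and the pgl-1 mutants thus also carried an allele of him-3, a gene of meiotic chromosome axes.

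Levels are given in normalized reads, the scale of the authors' deposited group averages. Those averages held whole multiples of the worth of 1 read, which gave back each library's reads, and the letters a, b and c mark a group's libraries from deepest to shallowest, because the averages carry no replicate number. Depth ran from 1027223 to 9079321 reads on genes. The RNAi and mutant experiments were scaled separately, so levels are compared only within each. Nothing in the labels says that replicates came from separate cultures, so the p-values measure the spread between these libraries, which may be technical.

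The depletion was visible in the targets. The mean level of pgl-1 was 1959 normalized reads in Day 1 controls and 26.6 after RNAi, and that of glh-1 was 1501 against 138. In the mutants pgl-1 stood at 187 normalized reads in the pgl-1 strain against 1751 in wild type, while glh-1 stood at 2126 in the glh-1 strain against 1425, so its reads do not check that label. One library stood apart before any comparison. In library a of the L4 RNAi group the summed level of 12 body wall muscle markers was 20427 normalized reads against 5795 and 6285 in its replicates, that of 12 hypodermis markers 9022 against 1700 and 2040, and that of 12 germ cell markers 16047 against 28817 and 28134. Intestine markers also varied within groups, from 16729 to 114219 normalized reads in L4 controls, from 55562 to 213892 in Day 1 RNAi and from 16112 to 65432 in the glh-1 mutant. In each group most markers of other tissues had reads, but hlh-1, the muscle regulator MyoD homologue, was at 0 in every library. It was alone in this among the 12 muscle markers.

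In the gene models of WBcel235, release 115, inx-8 and inx-9 are direct neighbours on chromosome IV, inx-21 and inx-22 are direct neighbours on chromosome I, inx-14 and lim-7 also lie on I, and unc-7 and unc-9 lie on X. inx-8 and inx-9 are closely related tandem copies, and how the counting shared reads between such copies is not given, so the split between them is uncertain while their sum is less so. The library kit does not mark strand. An exon stretch of 231 bases of inx-14 is also covered by kbrl-1 on the other strand, whose own mean level was 110 to 224 normalized reads across the RNAi experiment, so some reads credited to inx-14 could belong to it. The overlap of inx-9 with ZK792.4 is 62 bases, and ZK792.4 stayed between 0.421 and 11.7 normalized reads there. In the authors' deposited gene categories inx-14 is marked germline-enriched and germline-specific, inx-22 germline-enriched, and lim-7 and unc-9 soma-specific, and the other 4 members carry none of the 5 categories.

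The germ cell innexins were highest in control adults and lowest in GFP-positive RNAi gonads. inx-14, which encodes the partner common to both germ cell channel types, read 198, 294 and 194 normalized reads in the L4 control libraries a to c, 400, 416 and 388 at Day 1 and 447, 411 and 540 at Day 2. After RNAi inx-14 read 150, 257 and 352 at L4, 238, 244 and 223 at Day 1, 222, 218 and 237 in Day 2 GFP-negative gonads and 89.8, 123 and 146 in GFP-positive ones. The treatments overlapped at L4 and separated at both adult ages, and every GFP-positive library lay below every other library of the RNAi experiment.

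inx-22, whose product is known to help hold oocytes in meiotic arrest, was likewise highest in control adults and lowest in GFP-positive gonads, while its middle groups ranked otherwise than those of inx-14. Its control libraries read 226, 342 and 375 normalized reads at L4, 483, 552 and 519 at Day 1 and 544, 538 and 506 at Day 2. The RNAi libraries for inx-22 read 172, 394 and 369 at L4, 418, 351 and 240 at Day 1, 337, 296 and 331 in GFP-negative gonads and 116, 151 and 163 in GFP-positive ones. No adult RNAi library reached an adult control library.

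inx-21, whose product is known to be required for germ cell proliferation, moved least. Its control libraries read 174, 235 and 115 normalized reads at L4, 190, 188 and 188 at Day 1 and 213, 196 and 223 at Day 2. Its RNAi libraries read 144, 157 and 145 at L4, 151, 158 and 89.2 at Day 1, 150, 147 and 143 in GFP-negative gonads and 77.2, 98.8 and 92.9 in GFP-positive ones. The adult treatments did not overlap, but library c of Day 1 RNAi, the shallowest of all with 26 reads on the gene, lay inside the GFP-positive range.

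**Figure D1:**
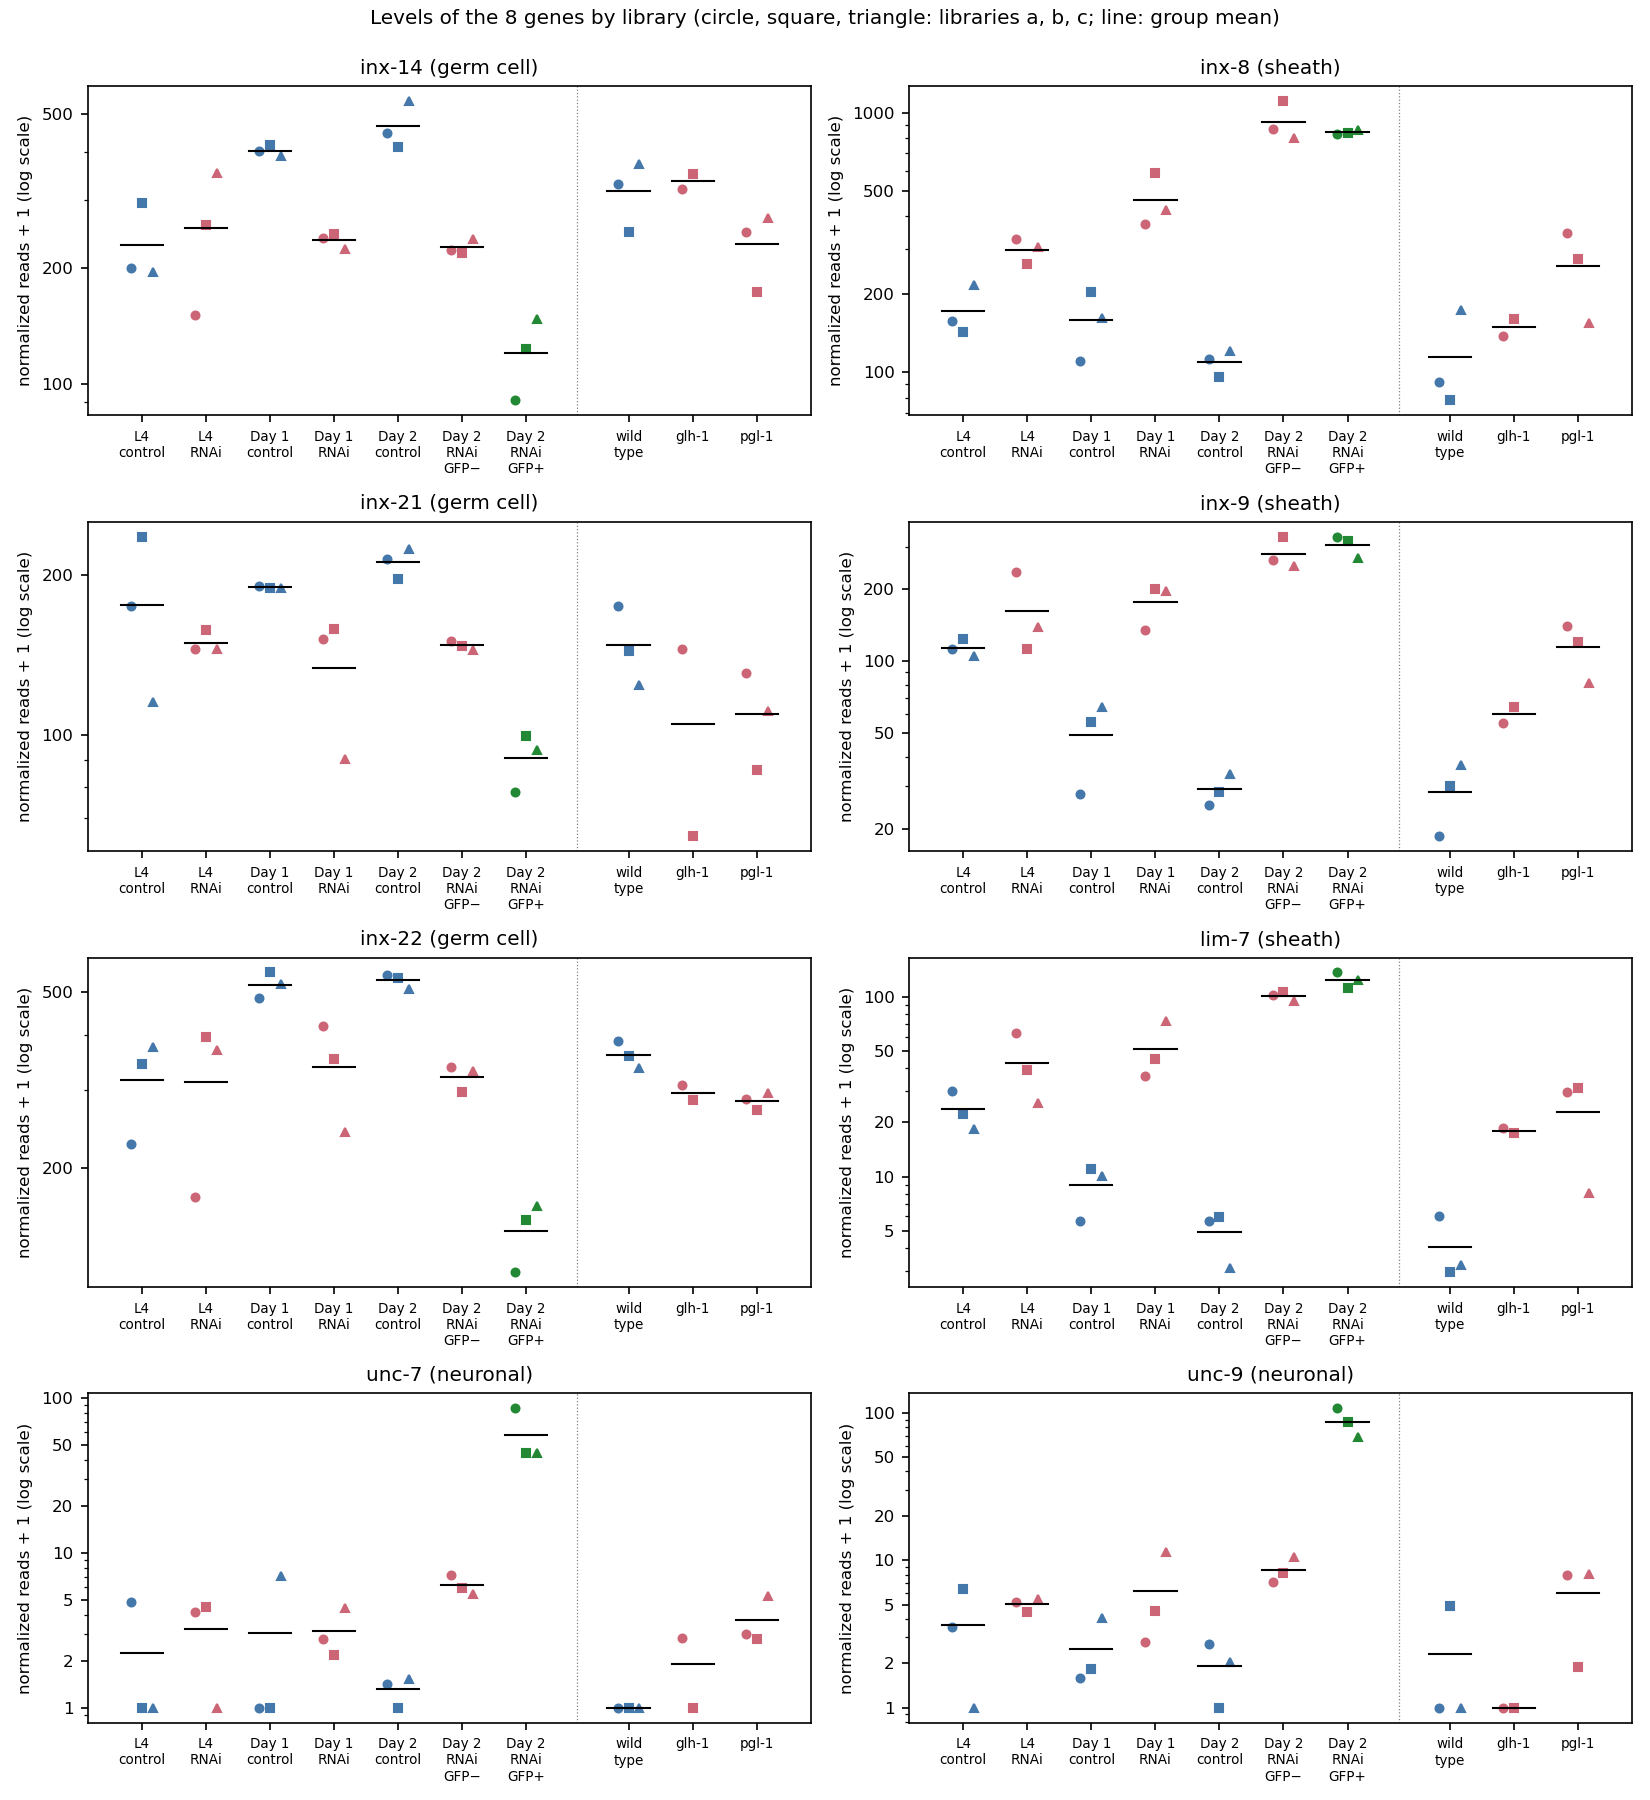
Level of each of the 8 genes in every library of the 10 groups, in normalized reads plus 1 on a log axis; circles, squares and triangles are libraries a, b and c, the short line is the group mean, and the dotted line parts the RNAi from the mutant experiment, which were scaled separately. The germ cell genes are lowest in the GFP-positive group, the sheath genes rise from controls to RNAi adults, and unc-7 and unc-9 stand above 40 normalized reads in the GFP-positive libraries alone.

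The sheath genes ran the other way. inx-8 read 157, 142 and 215 normalized reads in the L4 controls, 110, 203 and 161 at Day 1 and 112, 95.1 and 120 at Day 2. After RNAi inx-8 read 326, 260 and 303 at L4, 371, 587 and 422 at Day 1, 863, 1111 and 803 in GFP-negative gonads and 831, 836 and 856 in GFP-positive ones. Its RNAi libraries stood above the control libraries of the same age at every age, and both Day 2 RNAi groups stood above Day 1.

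inx-9 read 111, 123 and 104.2 normalized reads in the L4 controls, 26.9, 54.6 and 63.7 at Day 1 and 24.2, 27.4 and 32.96 at Day 2. After RNAi it read 236, 112 and 138 at L4, 134, 199 and 196 at Day 1, 265, 329 and 251 in GFP-negative gonads and 331, 317 and 270 in GFP-positive ones. Unlike inx-8, it overlapped between treatments at L4, where the highest value was that of library a, the one with high muscle and hypodermis markers.

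lim-7 was the rarest of the sheath genes. It read 29.1, 21.4 and 17.4 normalized reads in the L4 controls, 4.69, 10.1 and 9.10 at Day 1 and 4.67, 4.98 and 2.09 at Day 2, the last from 11, 10 and 4 reads. After RNAi it read 62.1, 38.01 and 24.5 at L4, 35.02, 43.9 and 72.1 at Day 1, 101, 105 and 93.7 in GFP-negative gonads and 135, 111 and 123 in GFP-positive ones. Adult RNAi libraries all lay above adult controls, and the L4 groups overlapped.

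The neuronal innexins were close to the detection limit except after GFP selection. unc-7 had 3, 0 and 0 reads in the L4 controls, 0, 0 and 2 at Day 1 and 1, 0 and 1 at Day 2, and 3, 3 and 0 reads in L4 RNAi and 2, 1 and 1 in Day 1 RNAi. It had 12, 9 and 6 reads in GFP-negative gonads and 195, 76 and 62 in GFP-positive ones, the latter being 85.0, 43.4 and 42.99 normalized reads. unc-9 had 2, 2 and 0 reads in the L4 controls, 1 in each Day 1 control, 4, 0 and 2 in Day 2 controls, 4, 3 and 2 in L4 RNAi and 2, 3 and 3 in Day 1 RNAi. It had 12, 13 and 13 reads in GFP-negative gonads and 244, 149 and 97 in GFP-positive ones, or 106, 85.1 and 67.3 normalized reads. A count of 0 allows up to 3 reads in that library, and such limits and the counting intervals below cover counting error only.

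Ordered by group mean, many neighbours were not separated. For inx-14 the 4 groups between 226 and 253 normalized reads (GFP-negative, L4 control, Day 1 RNAi and L4 RNAi) overlapped, with Day 1 and Day 2 controls apart above them and GFP-positive gonads apart below. For inx-8 the order ran from GFP-negative (926 ± 163, SD, n = 3) and GFP-positive (841 ± 13.5), which overlapped, to Day 1 RNAi (460 ± 113) and L4 RNAi (296 ± 33.4), each apart from its neighbours, and then to the 3 overlapping controls. For lim-7 the GFP-positive mean of 123 ± 11.9 lay apart from the GFP-negative mean of 99.7 ± 5.59, although the deposited test below did not separate them.

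At L4 the members did not pass a test for RNAi against control. In the authors' deposited table the log2 fold change was 0.69 for inx-8 with an adjusted p of 0.721, and the other 5 tested members lay between -0.16 for inx-21 and 0.50 for lim-7, each with an adjusted p of 1.000. The background was low as well, with 0.201% of 10924 tested genes called, 0.119% higher and 0.0824% lower. In limma voom, fitted to the recovered reads of all genes, 0 members passed at a Benjamini-Hochberg adjusted p under 0.05 and 1 had an unadjusted p under 0.05, inx-8 at 0.84 ± 0.33 (log2 fold change ± SE). Without library a the limma voom value was 0.75 for inx-8, and those of inx-9 and lim-7 went to 0.09 and 0.42. Values of the authors' deposited table can be smaller than the averages imply: that table gave -1.44 for pgl-1 at L4, whose averages were 63.0 and 2390 normalized reads.

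At adult Day 1 inx-14 and inx-22 fell while inx-8, inx-9 and lim-7 rose. The mean of inx-14 was 1.71-fold lower after RNAi (235 ± 10.9 against 401 ± 13.8 normalized reads), and in the authors' deposited table its log2 fold change was -0.82 with an adjusted p of 0.000152. For inx-22 the authors' deposited table gave -0.65 and an adjusted p of 0.0136, and for inx-21 -0.52 and 0.145, which did not pass. In limma voom inx-22 did not pass either, at -0.51 ± 0.22 with a Benjamini-Hochberg adjusted p of 0.131. That fit called inx-14 at -0.76 ± 0.22 (adjusted p 0.0238), and the call was lost without library a or b of either Day 1 group, at -0.74 to -0.79 with adjusted p of 0.0680 to 0.0893.

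The sheath genes changed by more. The mean rose 2.91-fold for inx-8, from 158 ± 47.0 to 460 ± 113 normalized reads, 3.64-fold for inx-9, from 48.4 ± 19.2 to 176 ± 36.8, and 6.32-fold for lim-7, from 7.96 ± 2.87 to 50.3 ± 19.3. These 3 genes had fold changes, in log2, of 1.44, 1.76 and 2.24, with adjusted p of 1.64e-06, 1.18e-05 and 0.00059 in the authors' deposited table. Thus 5 of 8 members were called where 29.8% of all tested genes were called, 19.4% higher and 10.4% lower. unc-7 with 4 against 2 reads and unc-9 with 8 against 3 had no adjusted p in the authors' deposited table, and their ratios per depth were 2.87 (95% exact interval 0.411 to 31.7) and 3.83 (0.919 to 22.4). Their difference was not detectable at this depth, although without Day 1 control library c, which holds both control reads of unc-7, limma voom called unc-7 at 2.97 (adjusted p 0.0173).

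Beside these changes other markers moved. Between Day 1 controls and Day 1 RNAi the summed body wall muscle markers ranged from 1579 to 3022 and from 4648 to 8462 normalized reads, pan-neuronal markers from 1608 to 1735 and from 2131 to 2440, intestine markers from 24952 to 49322 and from 55562 to 213892, and germ cell markers from 41733 to 44683 and from 20353 to 26333. The germ cell list includes pgl-1 and glh-1, targets of the RNAi, so part of its fall follows from the treatment. The genes of the authors' deposited sperm category moved further: their sum ranged from 6673 to 10077.5 normalized reads in Day 1 controls and from 34712.5 to 80082 in Day 1 RNAi. Of 757 tested, 576 were called higher and 2 lower in the authors' deposited table, with a median log2 fold change of 2.84. Spermatheca and distal tip markers ranged from 4763 to 5322 and from 3910 to 4159, with 2 of 5 tested called higher and 1 lower. Of all tested genes, 19.4% were called higher and 10.4% lower. At Day 2 the sperm category ranged from 6423 to 6812 in controls, from 24421 to 26810 in GFP-negative gonads and from 12706 to 28153 in GFP-positive ones. The part of these cells and tissues in the changes of the 8 genes was not tested. In bulk RNA, fewer cells of a type and less RNA per cell cannot be told apart.

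**Figure D2:**
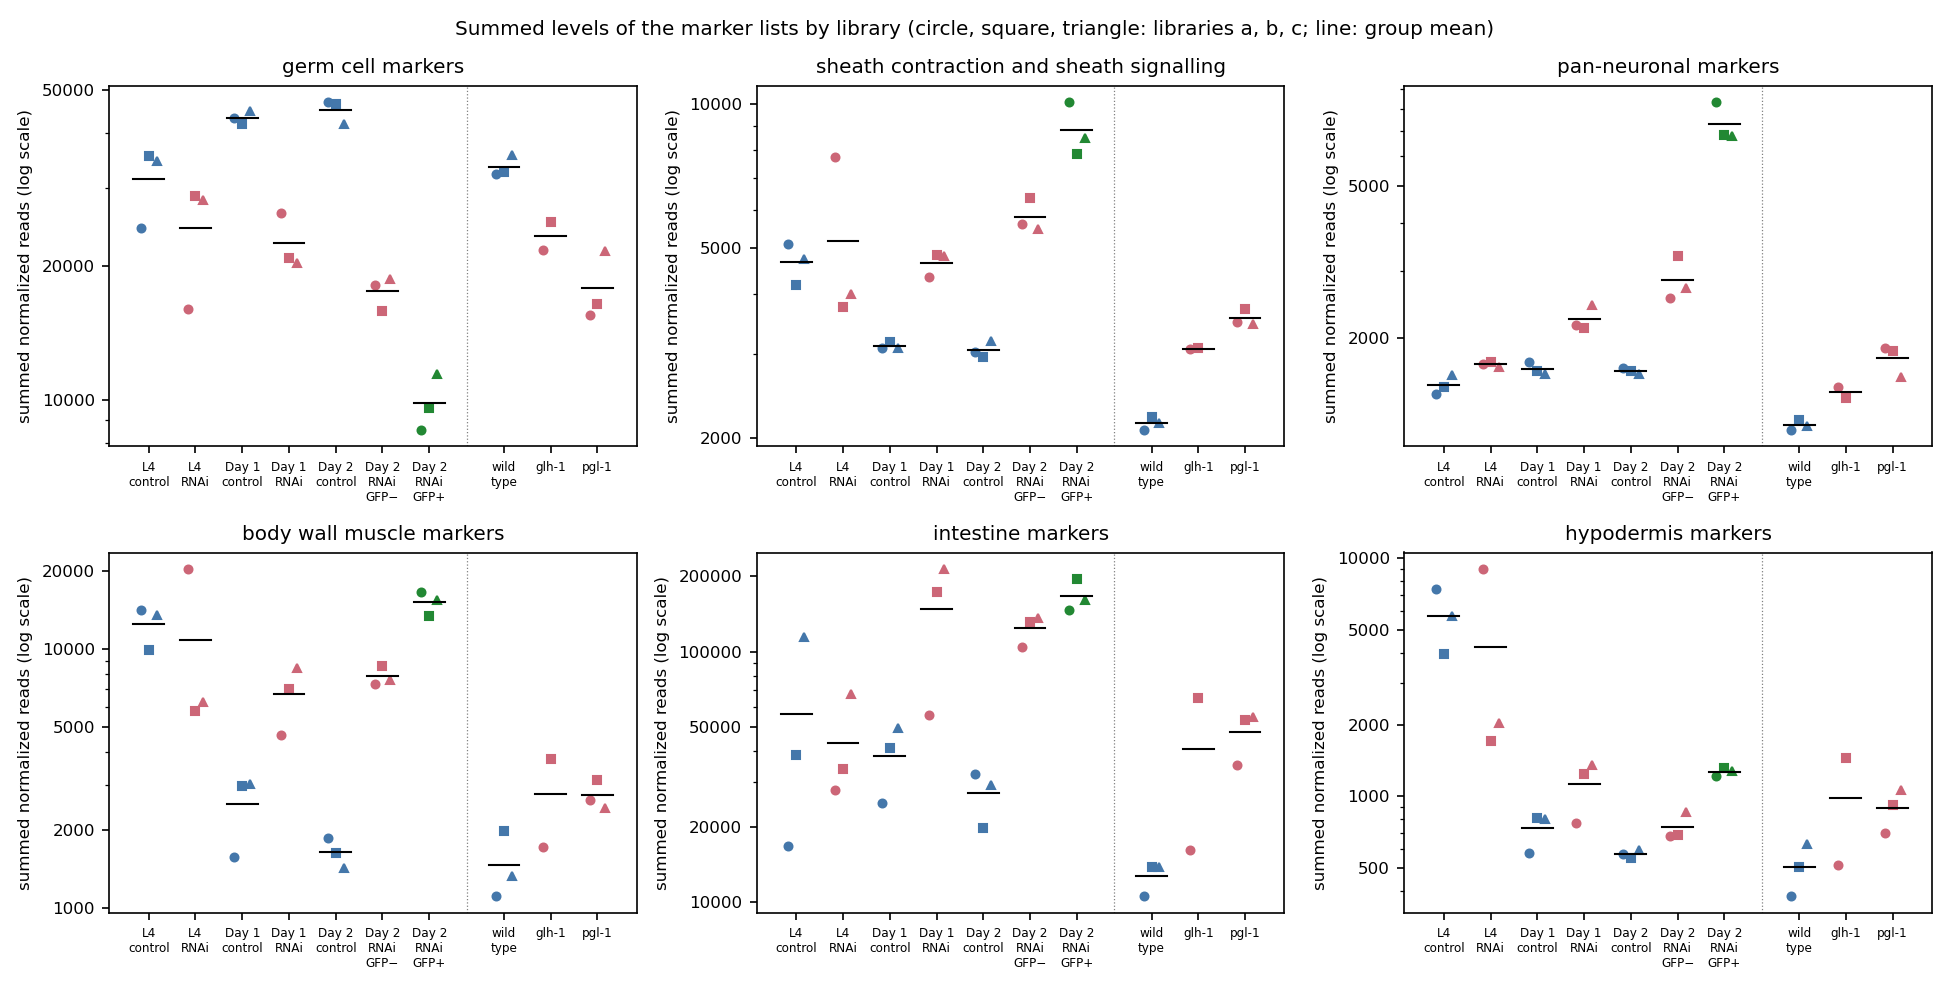
Summed level of 6 marker lists in every library, in normalized reads on a log axis, with circles, squares and triangles for libraries a, b and c and a line at the group mean. Germ cell markers fall from adult controls to GFP-positive gonads while sheath, neuronal, muscle and intestine markers are higher in adult RNAi groups, and L4 RNAi library a stands high for muscle and hypodermis. The germ cell list includes the RNAi targets pgl-1 and glh-1.

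At adult Day 2 all 8 members differed from control in both RNAi groups, 3 lower and 5 higher. The 2 comparisons share the Day 2 control libraries, and their values are given side by side. In the authors' deposited table inx-14 had log2 fold changes of -1.23 without and -2.42 with visible GFP (adjusted p 1.28e-15 and 2.29e-31). For inx-21 they were -0.71 and -1.70 (2.55e-06 and 4.08e-22), and for inx-22 -0.91 and -2.35 (7.59e-11 and 4.48e-42), all in the authors' deposited table. Against this count, 59.7% of all tested genes were called in GFP-negative gonads (38.2% higher, 21.5% lower) and 67.8% in GFP-positive ones (44.3% higher, 23.5% lower), so a call by itself sets the members little apart from the background.

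The sheath genes reached their largest differences here. For inx-8 the authors' deposited table held log2 fold changes of 2.88 and 2.48 in the same order (adjusted p 2.56e-72 and 3.17e-66), inx-9 of 3.12 and 2.98 (5.13e-56 and 1.08e-51), and lim-7 of 4.38 and 4.45 (7.95e-35 and 5.28e-35). The neuronal genes had 3.21 and 6.52 for unc-7 (0.00231 and 7.16e-13) and 2.56 and 5.86 for unc-9 (0.00238 and 2.45e-21) in the authors' deposited table. The control side of those last values rests on 2 reads of unc-7 and 6 of unc-9: the ratio per depth was 16.5 for unc-7 in GFP-negative gonads (95% exact interval 4.16 to 144) and 191 in GFP-positive ones (52.3 to 1580), and 7.76 (3.25 to 22.5) and 93.4 (42.6 to 256) for unc-9.

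The scale bears on these values. Against the log2 ratio of the group averages, the log2 fold change in the authors' deposited table differed by a median of -0.19 over 7106 genes in the GFP-negative group and of -0.46 over 7075 genes in the GFP-positive group, counting genes of at least 10 normalized reads on both sides. unc-7 and unc-9, which rest on few control reads, differed by more, at -0.83 and -0.50 in the first and -0.98 and -0.70 in the second. On the scale of the averages, limma voom gave inx-14 -1.04 ± 0.16 and -2.02 ± 0.19, inx-21 -0.52 ± 0.13 and -1.25 ± 0.15, and inx-22 -0.73 ± 0.16 and -1.93 ± 0.20 in the 2 groups. It gave inx-8 3.09 ± 0.20 and 2.95 ± 0.20, inx-9 3.34 ± 0.29 and 3.47 ± 0.29, and lim-7 4.66 ± 0.43 and 4.97 ± 0.43. All 8 members passed in both groups in either test, with the same direction.

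**Figure D3:**
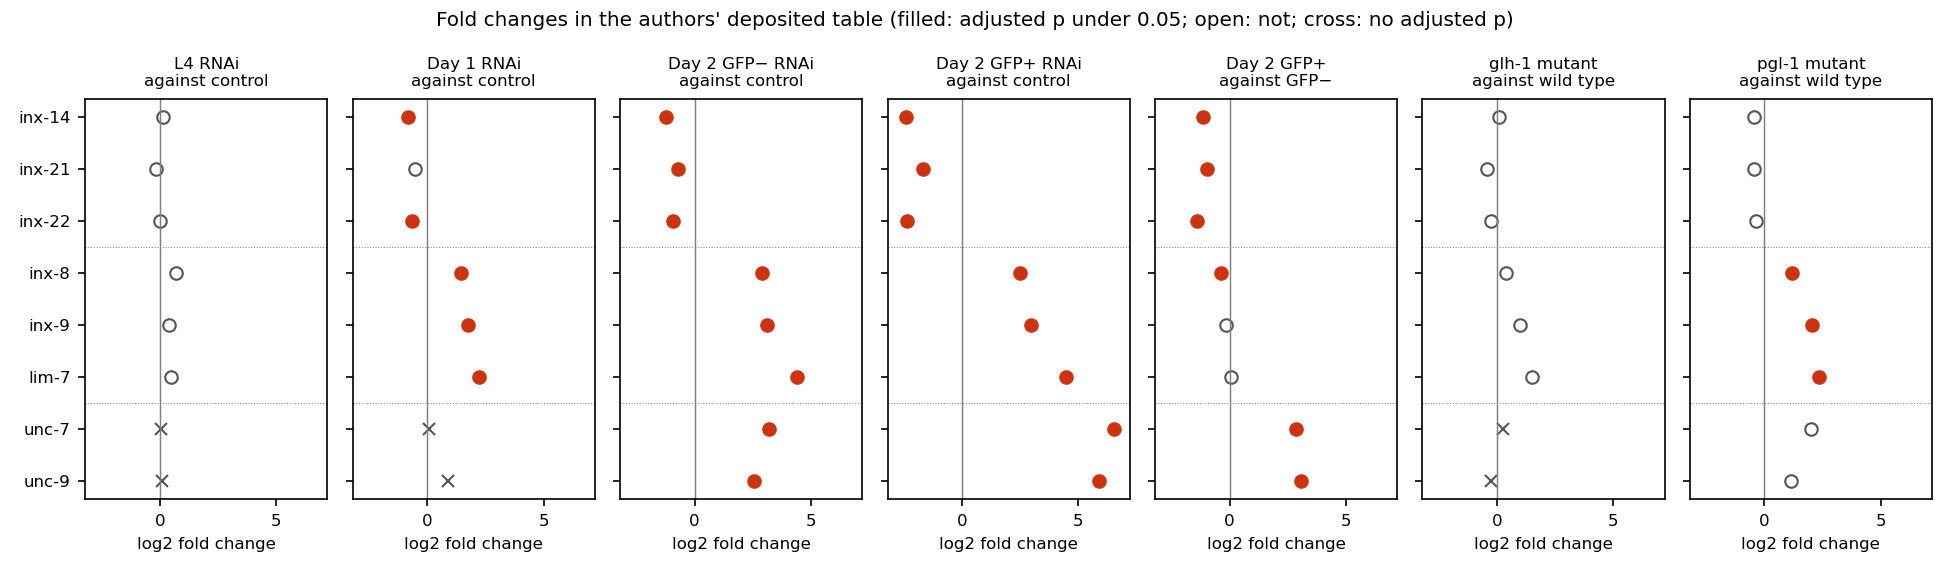
Log2 fold change of each member in the 7 comparisons of the authors' deposited table, first group over second, with filled points at an adjusted p under 0.05, open points above it and crosses where no adjusted p is given. Germ cell genes lie left of 0 and sheath and neuronal genes right of 0 in the adult RNAi comparisons with control, and only the 3 sheath genes are filled in the pgl-1 mutant.

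GFP-positive and GFP-negative gonads of the same age and treatment differed in the germ cell and neuronal genes. inx-14 had a log2 fold change of -1.15 (adjusted p 3.37e-08) between them in the authors' deposited table, inx-21 of -0.95 (2.53e-06) and inx-22 of -1.39 (4.26e-14). unc-7 was higher by 2.88 (6.6e-13) and unc-9 by 3.06 (2.66e-20) in the authors' deposited table, from 333 against 27 and 490 against 38 reads, ratios per depth of 11.5 (95% exact interval 7.78 to 17.8) and 12.05 (8.65 to 17.2). With inx-8 the authors' deposited table called 6 members, where 38% of all tested genes were called, 19.4% higher and 18.6% lower. unc-119 itself, the criterion of the selection, averaged 1035 normalized reads in GFP-positive gonads and 127 in GFP-negative ones. Its reads could come from the transgene as well as from the gene itself, and these were not told apart.

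The sheath members were not separated in the same way. The log2 fold change of inx-8 in the authors' deposited table was -0.38 with an adjusted p of 0.015, inx-9 -0.13 with 0.544 and lim-7 0.05 with 0.872. The call on inx-8 was not shared by limma voom, another test that also used the averages' scale, from which the deposited values differed here by a median of -0.25. In limma voom inx-8 had -0.14 ± 0.11 with a Benjamini-Hochberg adjusted p of 0.449, inx-9 0.13 ± 0.16 and lim-7 0.30 ± 0.17, neither of which passed, and the part of the scale and of the test in the lost call was not tested. The inx-8 libraries of the 2 groups overlapped, and without library b of the GFP-negative group its limma voom value was 0.0020.

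Other tissue markers moved with GFP as well. From GFP-negative to GFP-positive gonads the summed pan-neuronal markers went from a range of 2548 to 3287 to one of 6764 to 8308 normalized reads, body wall muscle markers from 7369 to 8625 to 13387 to 16697, and germ cell markers from 15856 to 18766 to 8565 to 11423. Spermatheca and distal tip markers went from 4156 to 4626 to 9664 to 14345.5, hypodermis markers from 679 to 856 to 1221 to 1315, and intestine markers from 104320 to 135918 to 146197 to 194687. A list of sheath contraction and signalling genes, some shared with body wall muscle, went from 5477 to 6348 to 7840 to 10062. Of its 18 genes, 10 were called higher and 2 lower in the authors' deposited table, beside 19.4% and 18.6% of all tested genes. Its median log2 fold change was 0.54 against 0.04. Of 18 pan-neuronal markers 17 were called higher and 0 lower in the authors' deposited table, with a median log2 fold change of 1.39 against 0.04 over all tested genes. The pan-neuronal list includes unc-119 and the hypodermis list rol-6, both also carried by the transgene. The part of these markers in the member values was not tested.

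With age in controls, germ cell and sheath genes went apart between L4 and Day 1. In limma voom inx-14 rose by 0.87 ± 0.26 (log2 ± SE, Benjamini-Hochberg adjusted p 0.0191) and inx-22 by 0.85 ± 0.26 (0.0231), while inx-9 had -1.52 ± 0.41 (0.0114) and lim-7 -1.71 ± 0.55 (0.0309). inx-21 had 0.13 ± 0.20 and inx-8 -0.18 ± 0.35 and did not pass. These 4 calls of 8 stand against 20.9% of all genes, 5.47% higher and 15.4% lower, and without L4 control library a or without Day 1 control library a the count was 0. Without those libraries in turn inx-9 had -1.54 (0.0695) and -0.98 (0.174), lim-7 -1.48 and -1.22, inx-14 0.72 and 0.89, and inx-22 0.52 and 0.93. lim-7 also lost its call without L4 control library b, at -1.76, inx-22 lost it without Day 1 control library b, at 0.79, and unc-7 gained one without Day 1 control library c, at -2.60. Summed body wall muscle markers ranged from 9967 to 14147 normalized reads in the L4 controls and from 1579 to 3022 at Day 1, and hypodermis markers from 3949 to 7446 and from 579 to 815. The sperm category went from a range of 40438 to 91129 to one of 6673 to 10077.5, and spermatheca and distal tip markers from 6508 to 7613 to 4763 to 5322. Their part in the lower inx-9 and lim-7 was not tested.

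Between Day 1 and Day 2 controls 0 members passed in limma voom and 0 had an unadjusted p under 0.05, with 0.00853% of all genes called. In RNAi gonads 0 members passed between L4 and Day 1, where inx-8 alone had an unadjusted p under 0.05, at 0.61 ± 0.24, and 0.345% of genes were called, 0.136% higher and 0.209% lower. From Day 1 to Day 2 GFP-negative RNAi gonads inx-8 rose by 1.04 ± 0.17 (limma voom, Benjamini-Hochberg adjusted p 0.0204), 1 call of 8 members against 0.128% of all genes, 0.115% higher and 0.0128% lower. inx-9 at 0.77 ± 0.23 and lim-7 at 1.21 ± 0.27 had adjusted p of 0.250 and 0.104. The call on inx-8 was lost without Day 1 RNAi library a, at 0.80 with an adjusted p of 0.117, and without library c, at 1.02 with 0.0506.

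The difference between the RNAi effects of a pair of ages was tested as an interaction in limma voom. For Day 1 minus L4, 0 members passed, 3 had an unadjusted p under 0.05, and 4.6% of genes were called; inx-9 had 1.58 ± 0.50 (adjusted p 0.0802), lim-7 1.73 ± 0.65 (0.154) and inx-14 -0.77 ± 0.36 (0.267). Without L4 RNAi library a, the one with high muscle and hypodermis markers, 4 members passed: inx-14 at -1.15, inx-22 at -0.95, inx-9 at 1.97 and lim-7 at 2.12. inx-9 also passed without Day 1 control library c, at 1.69, and without Day 1 RNAi library a, at 1.84. The share of all genes called in fits without a library is not given here, so those calls have no background beside them. For Day 2 GFP-negative minus Day 1, 0 members passed and 0.00426% of genes were called, while inx-8, inx-9 and lim-7 had an unadjusted p under 0.05, at 1.46 ± 0.33, 1.28 ± 0.46 and 2.14 ± 0.64.

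In the pgl-1 mutant the 3 sheath genes were the members called in the authors' deposited table, all of them higher. inx-8 read 91.0, 77.0 and 172 normalized reads in wild-type libraries a to c, 138 and 160 in the 2 glh-1 libraries and 343, 273 and 154 in the pgl-1 ones. inx-9 read 17.6, 29.2 and 35.8 in wild type, 54.3 and 63.7 in glh-1 and 140, 120 and 80.6 in pgl-1, without overlap of either mutant with wild type. lim-7 read 5.02, 1.95 and 2.24 in wild type, from 8, 2 and 1 reads, 17.5 and 16.4 in glh-1 and 28.5, 30.1 and 7.07 in pgl-1. Both mutants stood above wild type for inx-9 and lim-7, and library c of pgl-1, the shallowest of its group, was its lowest for all 3 sheath genes.

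The germ cell innexins of the mutants lay closer to wild type. inx-14 read 329, 246 and 372 normalized reads in wild type, 320 and 349 in glh-1 and 247, 173 and 269 in pgl-1. inx-21 read 174, 143 and 123, then 144 and 63.7, then 130, 85.0 and 110, and inx-22 read 387, 357 and 336, then 307 and 284, then 285, 270 and 294. Among these 3 genes, inx-22 in both mutants lay below every wild-type library, and the others overlapped with wild type.

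The 2 mutant comparisons share the wild-type libraries. In the authors' deposited table the pgl-1 mutant had log2 fold changes of 1.17 for inx-8 (adjusted p 0.00632, libraries overlapping), 2.05 for inx-9 (2.61e-07) and 2.35 for lim-7 (0.00334). Those 3 calls of 8 members stand against 31.1% of all tested genes, 22.3% higher and 8.84% lower. The same columns gave inx-14 -0.45 (0.154), inx-21 -0.44 (0.190) and inx-22 -0.35 (0.117) in the authors' deposited table, none of which passed. In limma voom, which called all 3 sheath genes, lim-7 lost its call without wild-type library b, at 2.26 with an adjusted p of 0.0545.

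For the glh-1 mutant the authors' deposited table called 0 members, where 9.15% of tested genes were called, 6.68% higher and 2.47% lower, and limma voom called 0 with 2 at an unadjusted p under 0.05. inx-9 had 1.01 (0.129) and lim-7 1.52 (0.108) in the authors' deposited table and 1.22 ± 0.43 and 2.28 ± 0.74 in limma voom. Those of inx-8, inx-14, inx-21 and inx-22 were 0.39, 0.09, -0.43 and -0.27 in the authors' deposited table. The direct comparison of pgl-1 with glh-1 mutants, added after the values were seen, passed for 0 members in limma voom, with 4 at an unadjusted p under 0.05 and 0.309% of genes called; inx-8 had 0.86 ± 0.33 and inx-9 1.04 ± 0.34.

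unc-7 had 0 reads in each wild-type library, 3 and 0 in glh-1 and 4, 2 and 3 in pgl-1, and unc-9 had 0, 4 and 0, then 0 and 0, then 14, 1 and 5. The authors' deposited table did not call either in pgl-1 (adjusted p 0.0964 and 0.335), while limma voom called unc-7 there at 2.35 ± 0.79 with a Benjamini-Hochberg adjusted p of 0.0349, from 9 reads against 0. Of the 6 fits without 1 library of either group, only that without wild-type library c called unc-7, at 2.83, and that without pgl-1 library b called unc-9, at 2.73. No fold is given for a gene at 0, and the ratio per depth of unc-9 in pgl-1 was 3.99 (95% exact interval 1.34 to 16.1). Summed marker ranges rose beside these from wild type to pgl-1, from 1113 to 1982 to 2449 to 3136 normalized reads for body wall muscle and from 1150.3 to 1218 to 1582 to 1889 for pan-neuronal markers, and germ cell markers went from 32275 to 35653 to 15504 to 21634. The germ cell list includes pgl-1 and him-3, both mutated in that strain. Intestine markers went from a range of 10527 to 13829 to one of 35117 to 54659. Of these markers 9 of 11 were called higher in the authors' deposited table, beside 22.3% of all tested genes. The sperm category went from 4860 to 5209 to 7030 to 12907. Spermatheca and distal tip markers went from 3219 to 4112 to 2263 to 2538. Their part in the member values was not tested.

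Ratios taken within a library do not depend on its scaling. Per kb of exon, the summed germ cell innexins exceeded the sum of inx-8 and inx-9 by 2.13 ± 0.525 (mean ratio ± SD, n = 3) in L4 controls, 4.83 ± 1.56 at Day 1 and 7.43 ± 0.444 at Day 2. After RNAi that ratio was 1.39 ± 0.609 at L4, 0.966 ± 0.328 at Day 1, 0.493 ± 0.0959 in GFP-negative gonads and 0.258 ± 0.0495 in GFP-positive ones. The L4 ratios were 0.689, 1.82 and 1.65 in RNAi libraries a to c against 1.86, 2.73 and 1.79 in controls and overlapped, and the adult RNAi libraries all lay below the adult controls. In the mutant experiment the ratio was 5.39 ± 1.82 in wild type, 3.00 ± 0.527 in glh-1 (n = 2) and 1.56 ± 0.730 in pgl-1.

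**Figure D4:**
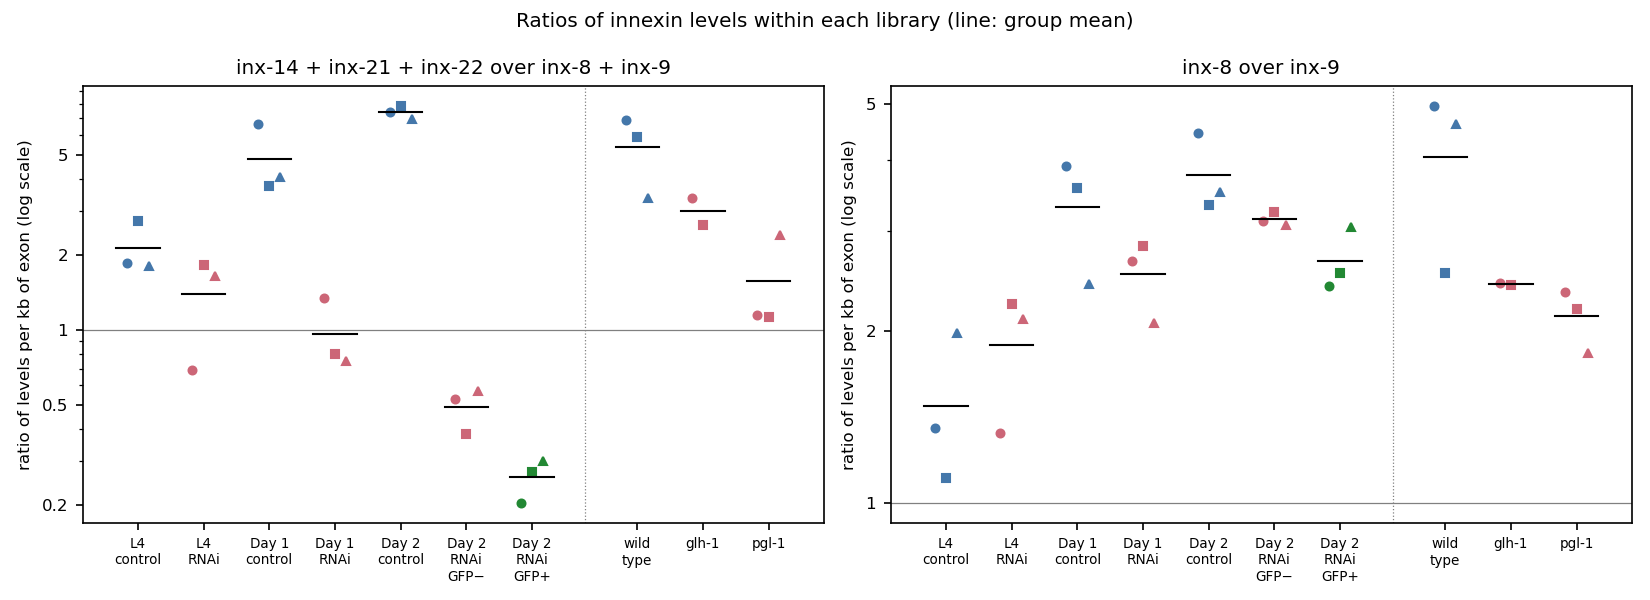
Ratio of levels per kb of exon within each library on log axes, left for the 3 germ cell innexins over inx-8 plus inx-9 and right for inx-8 over inx-9, with a line at the group mean. The left ratio falls below 1 in every Day 2 RNAi library, and the right one is above 1 in all libraries and lowest in the L4 groups.

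Among adult groups of the RNAi experiment, innexin pairs within a class held together more closely than germ cell against sheath innexins. inx-8 stood above inx-9 per kb in every library, by 1.48 ± 0.453 in L4 controls, 3.30 ± 0.777 and 3.76 ± 0.599 in Day 1 and Day 2 controls, 3.14 ± 0.0851 in GFP-negative gonads and 2.66 ± 0.340 in GFP-positive ones. inx-22 stood above inx-21 per kb by 2.86 ± 0.202 in Day 1 controls, 2.63 ± 0.252 in Day 2 controls, 2.28 ± 0.158 in GFP-negative gonads and 1.66 ± 0.145 in GFP-positive ones. In Day 1 RNAi inx-8 over inx-9 was 2.52 ± 0.397 and inx-22 over inx-21 was 2.67 ± 0.308. The GFP-positive values for inx-22 over inx-21 did not overlap with those of the other adult groups of the RNAi experiment. inx-14 over the sum of inx-21 and inx-22 was 0.579 ± 0.0240 in Day 1 controls and 0.522 ± 0.0562 in GFP-positive gonads. Elsewhere the spread was wider. At L4, inx-22 over inx-21 ran from 1.35 to 3.41 in controls and from 1.24 to 2.66 after RNAi. In glh-1 libraries a and b it was 2.22 and 4.65, and inx-14 over the sum was 0.724 and 1.02. Within the sheath class, inx-8 plus inx-9 over lim-7 per kb shifted more than inx-8 over inx-9. That ratio was 37.7 ± 3.30 in Day 1 controls, 60.3 ± 38.3 in Day 2 controls and 13.4 ± 1.27 in GFP-positive gonads. The Day 2 control value rests on 11, 10 and 4 reads of lim-7.

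Across the whole innexin family the germ cell share was lower, and that of inx-8 with inx-9 higher, in both Day 2 RNAi groups than in Day 2 controls. Over 24 innexins of the table, summed per kb, the 3 germ cell genes made up 71.5% ± 1.02 (SD, n = 3) in Day 2 controls, 23.6% ± 3.61 in GFP-negative gonads and 9.86% ± 2.20 in GFP-positive ones. inx-8 and inx-9 together made up 9.64% ± 0.482, 48.1% ± 2.25 and 38.1% ± 1.40 in the same groups. unc-7 and unc-9 together made up 0.0463% ± 0.0425, 0.266% ± 0.0560 and 2.42% ± 0.556. inx-22 was the most abundant innexin per kb in the 3 controls and in wild type, inx-14 in the glh-1 mutant, and inx-8 in all 4 RNAi groups and in the pgl-1 mutant, all by group means. At L4 RNAi that rank rested on library a, where inx-8 stood at 241 normalized reads per kb against 108 for inx-22. In libraries b and c inx-22 stood above inx-8, at 248 against 192 and at 232 against 223, and without library a inx-22 ranked first. In the pgl-1 mutant inx-8 ranked first in libraries a and b, inx-22 in library c, and without library a inx-22 led with 178 against 157 normalized reads per kb.

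**Figure D5:**
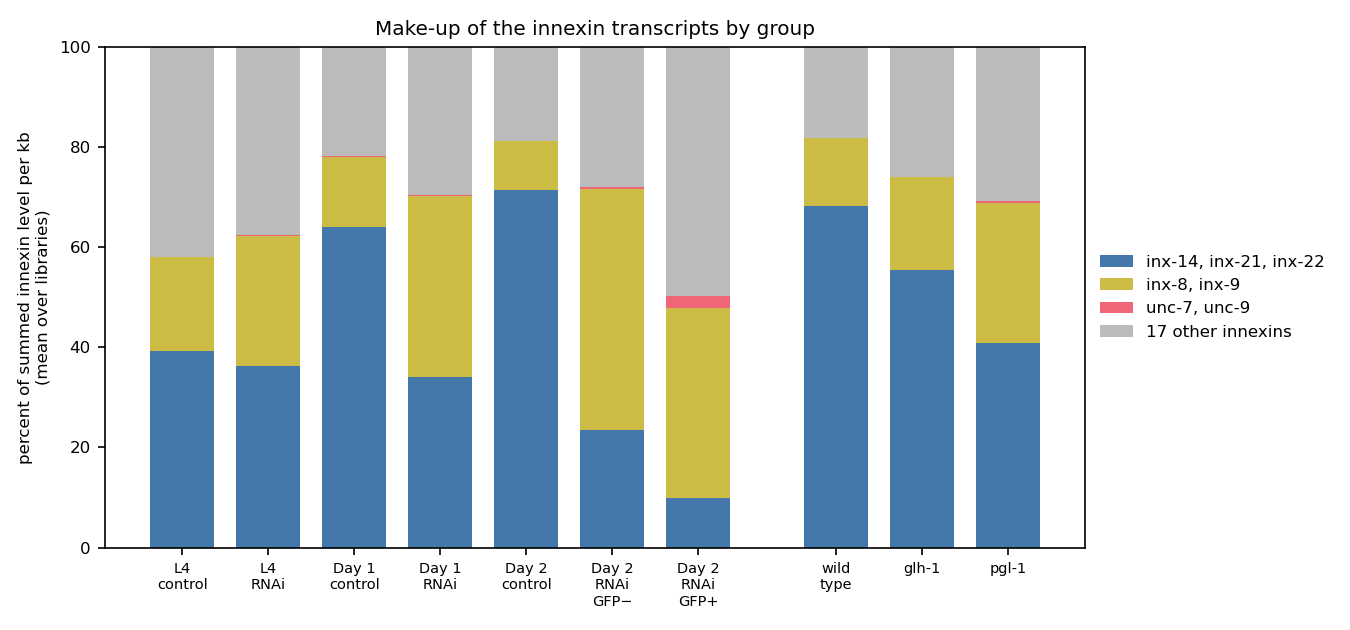
Share of the summed innexin level per kb of exon, as the mean over libraries in percent, held by the germ cell genes, by inx-8 with inx-9, by unc-7 with unc-9 and by 17 other innexins in each group. The germ cell share goes from 71.5% in Day 2 controls to 9.86% in GFP-positive gonads, and in GFP-positive gonads the other innexins hold the largest share.

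Of the other innexins 17 of 18 were found. At Day 1 RNAi 6 of 15 tested were called higher and 0 lower in the authors' deposited table, where 19.4% of all tested genes were higher. Their median log2 fold change was 0.93 against 0.26 over all tested genes. In GFP-negative gonads 12 of 16 were higher, beside 38.2% of all genes, and in GFP-positive ones 14 of 17, beside 44.3%. The medians were 2.50 and 2.93 against 1.296 and 2.08. In the pgl-1 mutant it was 5 of 15, beside 22.3% of all genes, with a median of 1.58 against 0.45. None was called lower in any of these comparisons.

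inx-3, an innexin of many epithelia and the highest of them in normalized reads averaged over the 10 groups though not in each, stood at 108 normalized reads in Day 2 controls, 138 in GFP-negative gonads and 562 in GFP-positive ones. Between GFP-positive and GFP-negative gonads the authors' deposited table gave inx-3 1.75 (9.26e-31), inx-2 1.38 (2.58e-10), inx-1 2.41 (3.53e-12), inx-13 0.54 (0.0129) and inx-12 0.44 (0.0309) as log2 fold change with adjusted p. These 5 of 16 tested were higher, beside 19.4% of all tested genes, and 0 lower. At Day 1 the 6 called were inx-5, inx-10, inx-12, inx-13, inx-15 and inx-16, between 1.18 for inx-12 and 2.41 for inx-5 in the authors' deposited table. In controls from L4 to Day 1, limma voom called 2 higher, inx-2 at 2.72 and inx-3 at 2.06, and 6 lower, from -1.73 for inx-12 to -5.84 for inx-15. Of all genes it called 5.47% higher and 15.4% lower there. L4 RNAi library a also held the highest summed level of these innexins at L4, 1409 normalized reads against 477 and 581.

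The pathways around the members were read as counts from lists chosen for their roles. Of 13 genes of oocyte maturation control, the process that germ cell and sheath junctions restrain, 12 were called lower and 0 higher at Day 1 RNAi in the authors' deposited table, with a median of -0.87 against 0.26 over all genes. All 13 were lower in both Day 2 groups and 4 in the pgl-1 mutant, and 0 were called at L4. rme-2, the yolk receptor of oocytes and the highest of them in normalized reads, fell from 7026 to 3737 normalized reads at Day 1, at -0.96 with an adjusted p of 1.62e-07 in the authors' deposited table. Of 10 genes of germline proliferation under the GLP-1 Notch receptor, 8 were lower and 0 higher at Day 1, with a median of -0.64 against 0.26. In each Day 2 group 9 were lower. Of all tested genes, 10.4% were called lower at Day 1, 21.5% in GFP-negative gonads and 23.5% in GFP-positive ones. In the pgl-1 mutant that share was 8.84%. lag-2, the ligand of the distal tip cell, was the 1 called higher in GFP-positive gonads.

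Of 18 genes of sheath contraction and signalling, 12 were higher and 1 lower at Day 1 RNAi, with a median of 1.64 against 0.26, and 15 higher and 1 lower in each Day 2 group, all in the authors' deposited table. Of all tested genes, 19.4% were higher and 10.4% lower at Day 1. In GFP-negative gonads these shares were 38.2% and 21.5%, and in GFP-positive ones 44.3% and 23.5%. In the pgl-1 mutant 11 were higher, beside 22.3% of all genes, and 0 lower. In glh-1 5 of 17 tested were higher, beside 6.68% of all genes. The list shares genes with body wall muscle, among them myo-3, a myosin heavy chain. ced-1, the engulfment receptor of sheath cells, whose normalized reads averaged over the 10 groups were the highest of the list though not in each group, had 0.47 at Day 1 with an adjusted p of 0.00287 in the authors' deposited table. pod-2, whose product makes malonyl-CoA, and fasn-1, whose product uses it, were both higher at Day 1 and in both Day 2 groups. The pair's median log2 fold change was 1.51 at Day 1 against 0.26 over all tested genes. It was 2.255 against 1.296 in GFP-negative gonads and 2.13 against 2.08 in GFP-positive ones, the last near the background. Malonyl-CoA is tied in C. elegans to the sheath and germ cell junctions. The level of fasn-1 rose from 820.1 to 3939.95 normalized reads at Day 1.

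Beside unc-7 and unc-9 stand the stomatins, among them UNC-1, which is known to regulate UNC-9 channels. All 8 stomatins of the list were called higher in GFP-positive gonads against control in the authors' deposited table, with a median log2 fold change of 5.37 against 2.08 over all tested genes, of which 44.3% were called higher. When the 2 Day 2 RNAi groups were compared, 6 of the 8 were higher by the authors' deposited table, with a median of 1.72 against 0.04 and 19.4% of all genes called higher. unc-1 averaged 0.141 normalized reads in Day 2 controls, 2.80 in GFP-negative gonads and 66.0 in GFP-positive ones, a difference of 3.81 in log2 between the last 2 (adjusted p 1.88e-19) in the authors' deposited table. Of 6 other LIM homeobox genes, relatives of lim-7 that mostly act in neurons, 1 of 2 tested was higher at Day 1 in the authors' deposited table, where 19.4% of all genes were, 2 of 4 in GFP-negative gonads against 38.2%, and 5 of 6 in GFP-positive ones against 44.3%. Their median log2 fold changes were 1.90, 2.55 and 4.23 against 0.26, 1.296 and 2.08 over all genes, and the GFP-negative count is near the background.

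Over the 21 libraries of the RNAi experiment, members of a class followed each other in log2 of the level plus 1. Pearson's r was 0.93 between inx-14 and inx-22, 0.97 between inx-9 and lim-7, 0.91 between inx-8 and inx-9 and 0.91 between unc-7 and unc-9, and -0.86 between inx-14 and lim-7. inx-21 followed its class less closely, at 0.83 with inx-14 and 0.79 with inx-22. Across classes, sheath and neuronal genes had 0.68 (inx-9 with unc-7) to 0.77 (lim-7 with unc-9). These correlations are descriptions of points that share groups, libraries and depth. Among 10467 other genes the pattern most like inx-14 was that of F17C11.10, cee-1 and B0261.7 (each 0.97), most like inx-22 that of C17E4.3, C27D9.1 and C05C10.5 (each 0.99), and most like inx-21 that of C30F12.2, W02B12.10 and F33A8.4 (0.93 to 0.94). Most like inx-8 were sdz-27, F41C3.5 and Y69H2.3 (each 0.98), most like inx-9 cle-1, ZC513.7 and nrf-5 (each 0.98), and most like lim-7 mrp-6, C15H9.9 and far-1 (each 0.98). Most like unc-7 were madd-2, tag-199 and rgs-6 (0.94 to 0.95) and most like unc-9 eva-1, R90.1 and Y102A11A.8 (0.95 to 0.96). The sheath genes were thus matched by other genes as closely as by each other.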

How the data were processed

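Gonad RNA was depleted of rRNA and made into NEBNext Ultra libraries, per the labels' protocols. The submitters' processing notes name TopHat2 and DESeq2; no version, genome build, annotation or counter is given in the sources used here. The authors deposited 1 table with group averages of normalized reads (a signal that is never negative), log2 fold changes and adjusted p-values for 7 comparisons. A mean expression column and 0 or 1 gene categories were deposited beside them. 181 of 45627 rows have no average.

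Whole reads per library were recovered from the averages for 45446 genes. In 0 to 105 genes a group several solutions were possible, and the authors' mean expression values decided between them. In the genes checked those values were met within 1e-06. RNAi and mutant libraries were fitted separately with limma 3.58.1 voom in R 4.3.3 (23460 and 15189 genes whose mean reached 1 in any group, on the authors' scale). P-values were Benjamini-Hochberg adjusted over all genes, with a threshold of 0.05. The deposited values are the main result where a comparison was deposited. On simulated data the share of false calls in several voom comparisons exceeded its nominal level, so adjusted p near 0.05 need care. Alternatives were quality weights, limma-trend (pseudocounts 1 and 0.5), library totals, filters on low values and each library left out.

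Members and gene lists were chosen with earlier results of these data known. Named genes are all members, other innexins that passed, unc-119, the most abundant genes of lists, and the 3 genes of most like pattern (mean of at least 10). The rme-2, fasn-1, lag-2, unc-1, kbrl-1, ZK792.4 and RNAi target values were picked with values seen. che-7 and opt-2 of the lists were not analysed here.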

Additional observations from a re-analysis of the deposited data

How the results depend on the processing

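No paired analysis was possible because the recovered libraries carry no replicate number. With 1 library left out in turn, the number of members called ran from 3 to 5 for Day 1 RNAi against control, from 0 to 5 for control Day 1 against L4, from 0 to 1 for GFP-negative RNAi Day 2 against Day 1, from 0 to 4 for the Day 1 minus L4 RNAi effect and from 2 to 4 for the pgl-1 mutant. For GFP-negative RNAi Day 2 against Day 1 the 1 call became 0 with sample quality weights, with limma-trend at either pseudocount and when library c was dropped from each Day 1 group (added after seeing the data), and 2 with a group mean of at least 10. For the Day 1 minus L4 RNAi effect the 0 calls became 3 with quality weights, 2 with limma-trend at either pseudocount and 1 with a group mean of at least 10. The cause was not tested, and the shares of all genes called under these alternatives are not given here. In limma voom inx-8 in GFP-positive against GFP-negative gonads went from -0.14 with all libraries to 0.0020 without GFP-negative library b. The shallowest libraries limit lim-7, unc-7 and unc-9 in controls and wild type, which rest on few reads. The other counts stayed within 1.5 times under the alternatives run.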
